A study of Mus musculus with 18 samples.

Results

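Choroid plexus genes were described across mouse medulloblastomas. The members were 9 genes listed by symbol, namely Ttr, Enpp2, Sostdc1, Kl, Folr1, Aqp1, Slc4a5, Clic6 and Otx2. Of them, 8 were measured among the 19938 genes with a level, each by 1 probe set, and Enpp2 was not analysed here because no probe set was paired with its symbol in the probe table. The members were chosen by name, as genes of this tissue, with earlier results of these data known, and the arrays are described singly because a single tumour may carry the tissue.

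Total RNA of medulloblastomas, extracted with Trizol, had been measured on 18 Affymetrix Gene ST 1.0 arrays for the mouse, in 5 groups. There were 4 arrays of NG-Ptch tumours, 2 of GFD-Ptch and 4 of GFI-Ptch. Another 4 were of NG-Smo;Atoh1-CreER tumours, written NG-Smo here, and 4 of GFD-Smo;GFAP-cre tumours, written GFD-Smo. The labels do not spell out the subtype names NG, GFD and GFI, nor do they give the alleles of Ptch and Smo or the ages of the mice. Ptch encodes the receptor that restrains the Hedgehog pathway, and Smo the transducer that it restrains. Atoh1-CreER is a tamoxifen-dependent Cre of the granule neuron lineage, and GFAP-cre acts in neural stem cells and astroglia. All NG tumours of Smo mice carried Atoh1-CreER and all GFD tumours of Smo mice carried GFAP-cre, so subtype and Cre driver cannot be told apart in them. GFI-Ptch replicate 4 was labelled as having progressed from another tumour in an NSG host, a mouse strain without mature lymphocytes, and its array differs in that respect from the other 3 of its group. The labels do not say whether replicates were separate animals, so the p-values reflect only how far these samples spread, which may be technical.

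The choroid plexus is a sheet of secretory epithelium around a vascular core that hangs in the ventricles of the brain and makes cerebrospinal fluid. Its cells carry bicarbonate and water across the epithelium, take up folate, and release transthyretin and other proteins into the fluid. The plexus of the fourth ventricle lies beside the cerebellum, where medulloblastoma grows.

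The labelled tissue was checked against 10 genes of granule neuron progenitors, the cells from which Hedgehog medulloblastoma arises. All 10 were far above the array medians (7.736 to 7.868) on every array. Atoh1, the defining transcription factor of the lineage, lay between 11.78 and 12.81 on the 14 arrays low in Ttr, and at 12.51, 12.24, 11.80 and 11.83 on the 4 others that are introduced below. Levels are the deposited values, taken as log2 from their range, so that 1 unit is a factor of 2. The files held no detection calls, so a level near the lower quartile of the arrays (6.21 to 6.382) cannot be told from background.

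The upstream sequence of members that were high together is shown first, with that of a member that was not. RefSeq windows were held for 4 of the 8 measured members (7 windows, GRCm38.p6), and Ttr is not among the sequences shown. Each is the 250 bases before the start of transcription, written 5′ to 3′ in the direction of the gene. The Kl window is chr5:150952357-150952606, plus strand. The Slc4a5 window is chr6:83237125-83237374, plus strand. The Otx2 window is chr14:48665110-48665359, minus strand, 1 of 4 windows of that gene. Capitals mark the letters TAATCC or, on the other strand, GGATTA, the core bound by the OTX family to which Otx2 belongs.
Kl: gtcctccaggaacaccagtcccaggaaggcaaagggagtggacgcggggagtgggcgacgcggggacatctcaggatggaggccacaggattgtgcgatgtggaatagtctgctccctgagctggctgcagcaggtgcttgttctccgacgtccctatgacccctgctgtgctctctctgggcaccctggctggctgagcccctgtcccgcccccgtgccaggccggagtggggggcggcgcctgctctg
Slc4a5: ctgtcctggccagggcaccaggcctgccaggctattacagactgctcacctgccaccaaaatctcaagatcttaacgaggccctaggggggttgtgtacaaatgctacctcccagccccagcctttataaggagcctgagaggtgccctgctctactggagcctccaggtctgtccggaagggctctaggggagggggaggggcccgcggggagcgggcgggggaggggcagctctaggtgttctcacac
Otx2: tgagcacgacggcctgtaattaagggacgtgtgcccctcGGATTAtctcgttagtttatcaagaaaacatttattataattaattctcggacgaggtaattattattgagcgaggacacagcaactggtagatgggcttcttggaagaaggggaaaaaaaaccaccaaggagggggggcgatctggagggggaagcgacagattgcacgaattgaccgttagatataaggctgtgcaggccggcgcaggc
The search found 1 match in the Otx2 window shown, beginning 211 bases before the start (position -211). It found none in the other windows of Otx2, nor in the Kl, Slc4a5 and Aqp1 windows. Of all 32851 windows of this length, 2054 (6.25%) held the letters on either strand, so a match in 1 of 7 windows is a description only. The Kl window had 66.8% G and C and 13 CpG sites, the Slc4a5 window 62.8% and 6 sites, and this Otx2 window 48.4% and 14 sites, against a median of 52.4% and 6 sites over all windows.

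Ttr, the gene of the thyroid hormone and retinol carrier transthyretin that the plexus secretes in bulk, was low on most tumours and very high on a few. Its level was 6.64, 6.67, 12.14 and 6.66 on NG-Ptch replicates 1, 2, 4 and 5. On GFD-Ptch replicates 1 and 2 it was 6.72 and 6.78. On GFI-Ptch replicates 1 to 4 it was 6.69, 12.52, 6.50 and 6.30. So the Ptch tumours held 1 high array in NG, 1 in GFI and none in GFD. On NG-Smo replicates 1 to 4 the level of Ttr was 11.15, 6.34, 6.31 and 6.67, and on GFD-Smo replicates 1 to 4 it was 6.56, 12.70, 6.48 and 6.48. Each group of 4 thus had exactly 1 array high in Ttr, and the other 14 arrays ran from 6.30 to 6.78. Above the median of the other arrays of the group, Ttr stood at least 44.7-fold higher on NG-Ptch replicate 4, 65-fold on GFI-Ptch replicate 2, 28.1-fold on NG-Smo replicate 1 and 74.5-fold on GFD-Smo replicate 2. These are lower bounds, since the arrays they are set against lie near the lower quartile. These 4 arrays were picked out by Ttr after its values were seen, so what follows on them is a description with no test. Their gender labels were ND, F, M and F in that order, and the transplanted GFI-Ptch replicate 4 was not among them. In whole tumours, more cells of a type and more RNA per cell cannot be told apart.

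**Figure D1:**
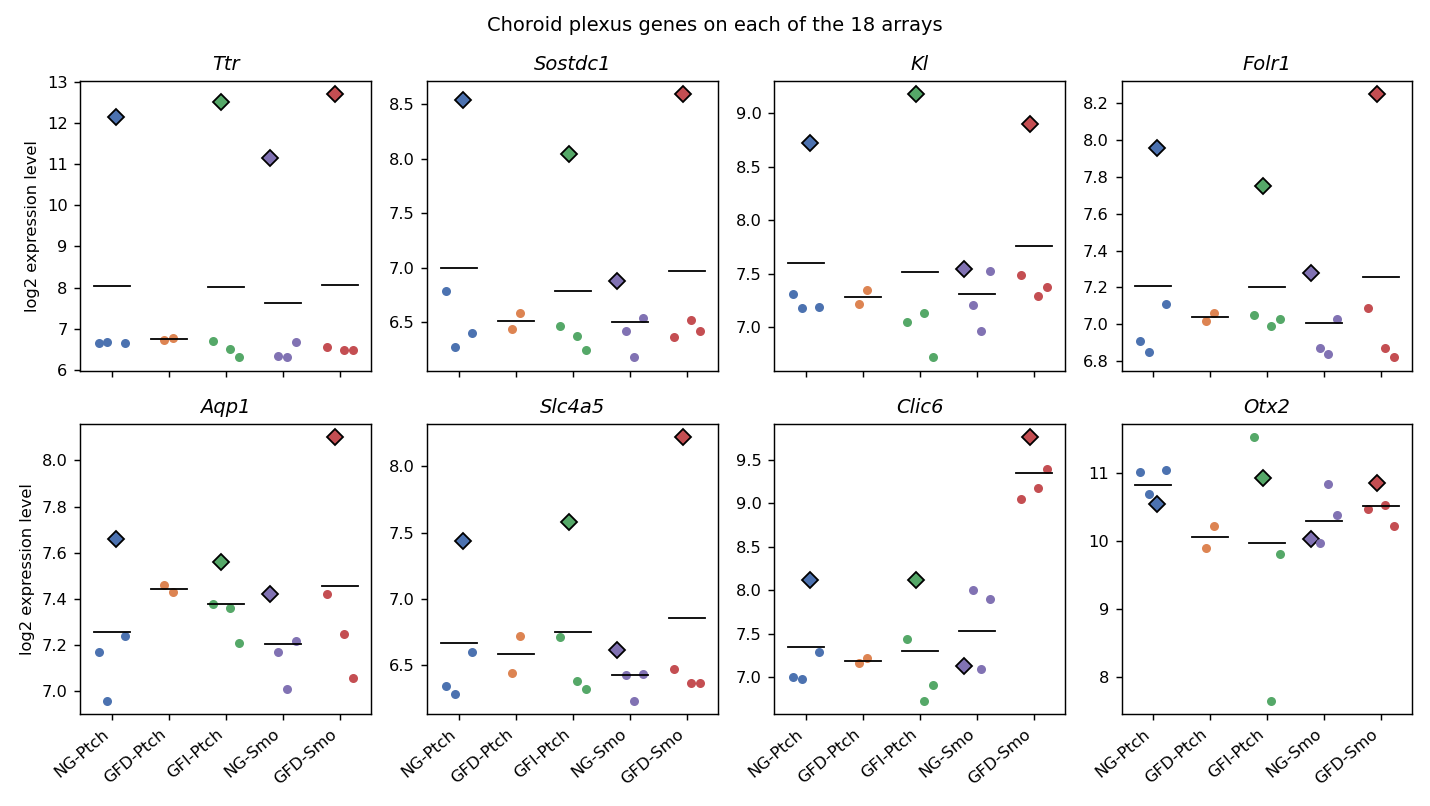
Log2 expression level (vertical axes, a scale per panel) of the 8 measured members on each of the 18 arrays, by group. Points are arrays, outlined diamonds are the 4 arrays high in Ttr and lines are group means. All 4 diamonds stand apart in Ttr, those of NG-Ptch, GFI-Ptch and GFD-Smo also in Sostdc1, Kl, Folr1 and Slc4a5, while Clic6 is high on all 4 GFD-Smo arrays, at 9.05 to 9.76.

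Sostdc1, a secreted antagonist of BMP and Wnt signalling, followed Ttr on 3 of the 4 arrays. Its level was 6.79, 6.28, 8.54 and 6.40 on NG-Ptch replicates 1, 2, 4 and 5, and 6.44 and 6.59 on the GFD-Ptch arrays. On GFI-Ptch replicates 1 to 4 it was 6.47, 8.04, 6.38 and 6.25, and on GFD-Smo replicates 1 to 4 it was 6.37, 8.59, 6.52 and 6.42. NG-Smo replicate 1, high in Ttr, had Sostdc1 at 6.88 beside 6.42, 6.18 and 6.54 on the rest of its group. Against the median of the other arrays of the group the excess, a lower bound for the same reason, was at least 4.41-fold, 3.18-fold and 4.52-fold on NG-Ptch replicate 4, GFI-Ptch replicate 2 and GFD-Smo replicate 2, and at least 1.37-fold on NG-Smo replicate 1.

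Among the members that act at the cell surface, Kl, which encodes the FGF23 co-receptor Klotho, was highest on the same 3 arrays. It stood at 8.72 on NG-Ptch replicate 4, with 7.31, 7.18 and 7.19 on the others of that group. On GFI-Ptch replicate 2 it was 9.18, with 7.05, 7.14 and 6.72 on replicates 1, 3 and 4. On GFD-Smo replicate 2 it was 8.90, with 7.49, 7.29 and 7.38 on replicates 1, 3 and 4. The 2 GFD-Ptch arrays, at 7.22 and 7.35, lay in the range of the low arrays. NG-Smo replicate 1 was at 7.55, next to 7.53 on replicate 4 and above 7.21 and 6.97 on replicates 2 and 3. The excess of Kl in fold was 2.89, 4.4, 1.26 and 2.87 on NG-Ptch replicate 4, GFI-Ptch replicate 2, NG-Smo replicate 1 and GFD-Smo replicate 2.

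Folr1, the folate receptor that carries folate into the cerebrospinal fluid, showed the same arrays with a smaller excess. It was 7.96 on NG-Ptch replicate 4 beside 6.85 to 7.11 on the rest of its group, and 8.25 on GFD-Smo replicate 2 beside 6.82 to 7.09. On GFI-Ptch replicate 2 it was 7.75 beside 6.99 to 7.05, and on NG-Smo replicate 1 it was 7.28 beside 6.84 to 7.03. In log2 units the excess was 1.05, 1.38, 0.72 and 0.41 in that order, and GFD-Ptch, at 7.02 and 7.06, again held no high array.

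The members that move water and ions differed in how far they stood above their groups. Slc4a5, a sodium bicarbonate cotransporter, was 7.44, 7.58 and 8.22 on NG-Ptch replicate 4, GFI-Ptch replicate 2 and GFD-Smo replicate 2, with an excess of 1.10, 1.20 and 1.86, and 6.61 on NG-Smo replicate 1, with an excess of 0.19. On the 14 other arrays it lay between 6.23 and 6.72. Aqp1, the water channel of the apical membrane, exceeded its group by 0.49, 0.20 and 0.84 on the same 3 arrays, with levels of 7.66, 7.56 and 8.10, and by 0.25 on NG-Smo replicate 1 at 7.42. Its 14 other arrays spanned 6.96 to 7.46, and of the 4 arrays high in Ttr NG-Smo replicate 1 was the one within that span. Clic6, a member of the chloride intracellular channel family, was 8.12 on both NG-Ptch replicate 4 and GFI-Ptch replicate 2, beside 6.98 to 7.29 and 6.73 to 7.44 on the others of these groups. That was an excess of 1.12 and 1.21, and its excess on GFD-Smo replicate 2 was 0.58. On NG-Smo replicate 1 it lay 0.77 below the median of the rest of its group, a difference of -0.77.

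Otx2, a homeobox transcription factor needed for the plexus to form and also expressed by granule neuron progenitors, did not follow Ttr. On NG-Ptch replicates 1, 2, 4 and 5 its level was 11.01, 10.68, 10.54 and 11.04, the array high in Ttr being the lowest. On GFI-Ptch replicates 1 to 4 it was 11.52, 10.92, 7.65 and 9.80, the widest span of any group. On NG-Smo replicates 1 to 4 it was 10.02, 9.96, 10.83 and 10.38, and on GFD-Smo replicates 1 to 4 it was 10.46, 10.85, 10.53 and 10.22. On the GFD-Ptch arrays it was 9.90 and 10.22. Against the median of the rest of the group it lay above on GFI-Ptch replicate 2 (1.12) and GFD-Smo replicate 2 (0.39), and below on NG-Ptch replicate 4 (-0.47) and NG-Smo replicate 1 (-0.36). On GFI-Ptch replicate 3, where Otx2 was low, Ttr was 6.50, within the 6.30 to 6.78 of the 14 arrays low in Ttr, and Clic6 was 6.73.

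**Figure D2:**
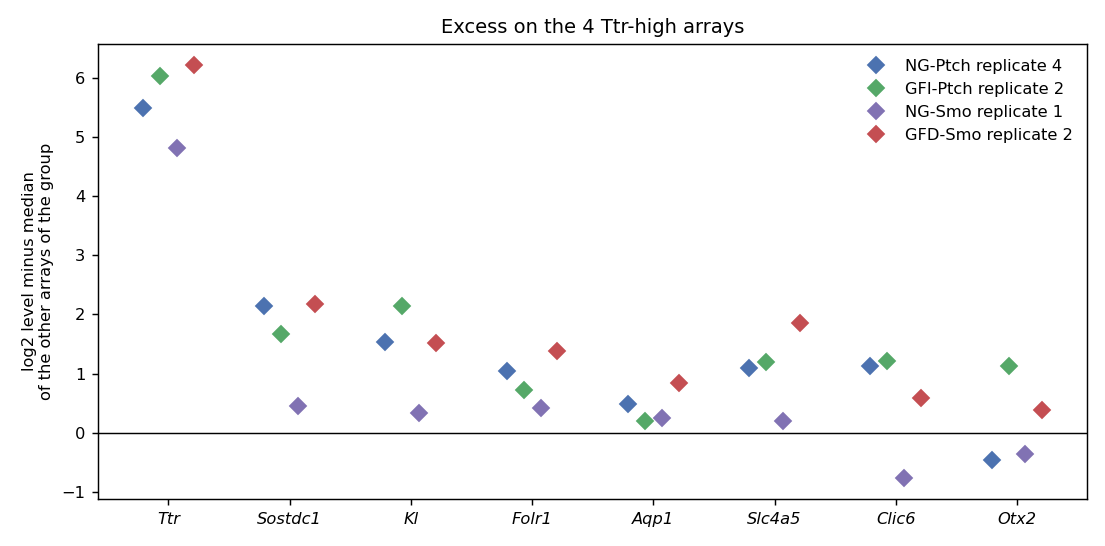
Log2 level of each of the 8 members on the 4 arrays high in Ttr, minus the median of the other arrays of the same group (vertical axis). Each diamond is 1 array. Ttr lies 4.81 to 6.22 above the line at 0 on all 4, the excess of NG-Smo replicate 1 is at most 0.45 for the other members, and Otx2 lies on both sides of the line.

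Counted by array, 4 members (Ttr, Sostdc1, Kl and Slc4a5) were at least 1 log2 unit above their median over the 18 arrays on NG-Ptch replicate 4 and on GFI-Ptch replicate 2. On GFD-Smo replicate 2 the count was 6, with Folr1 and Clic6 added, and on NG-Smo replicate 1 it was 1, Ttr itself. On the 14 other arrays it was 1 on GFI-Ptch replicate 1 (Otx2), 1 each on GFD-Smo replicates 1, 3 and 4 (Clic6), and 0 elsewhere. NG-Ptch replicate 4, GFI-Ptch replicate 2 and GFD-Smo replicate 2 are called the 3 arrays from here on. On the 3 arrays, 7 of the 8 members, all but Otx2, were above every other array of the group, a condition met by 1.83% of the 19938 genes. Adding NG-Smo replicate 1 left 6 of 8 members, without Clic6, where the condition was met by 0.381% of all genes. The 3 arrays were chosen by the members' own values, so nothing is read from these counts about the members.

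At least 1 log2 unit above every other array of the group on each of the 3 arrays were 4 genes of all measured, 0.0201%. They were Ttr, Sostdc1, Kl and Kcnj13, the last being no member. Kcnj13 encodes the apical potassium channel Kir7.1 of the plexus epithelium. Its level was 9.65, 9.55 and 10.31 on NG-Ptch replicate 4, GFI-Ptch replicate 2 and GFD-Smo replicate 2, and 8.17 on NG-Smo replicate 1. On the 14 other arrays it ran from 6.42 to 7.02, so Kcnj13 and Ttr put the same 4 arrays above all the rest. The Kcnj13 excess on NG-Smo replicate 1 was 1.65, larger than that of any member but Ttr.

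Of 50 further names of choroid plexus genes, 45 genes were measured. On all of the 3 arrays 21 of the 45 (46.7%) were the highest of their group, and 12 (26.7%) were so on all 4 arrays high in Ttr. Over all genes the shares were the 1.83% and 0.381% above. These lists too were drawn up with earlier results of these data known, so the shares are a description and not independent support. By array, the number of the 45 that were highest in the group was 32 on NG-Ptch replicate 4, 23 on GFI-Ptch replicate 2 and 32 on GFD-Smo replicate 2. In NG-Smo it was 17 on replicate 1, high in Ttr, and 18 on replicate 4, which was not. The share of all genes that were highest in their group was not counted for single arrays. So nothing is read from these numbers about the 45 genes.

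Ion and water transport genes met the condition on the 3 arrays for 8 of 13: Kcnj13, Kcne2, Slc4a10, Slc4a2, Car12, Slc13a4, Trpm3 and Slc29a4. Car12, a carbonic anhydrase of the cell surface, was 7.71, 7.22 and 7.64 on the 3 arrays and 6.58 on NG-Smo replicate 1, against 6.12 to 6.53 on the 14 others. Trpm3, a calcium-permeable channel, was 9.25, 9.85 and 9.88 on the 3 arrays and 9.14 on NG-Smo replicate 1, against 7.58 to 9.13. Secreted and membrane proteins met it for 9 of 16: Wfikkn2, Ecrg4, Htr2c, Ace, Cab39l, Tmem72, Calml4, F5 and Steap1. Of these, Steap1, at 5.94, 5.89 and 6.39 on the 3 arrays, lay below or near their lower quartiles. Calml4 was near them on NG-Ptch replicate 4 (6.45) and GFI-Ptch replicate 2 (6.46). Some genes met the condition by little. The excess of Cab39l was 0.08, 0.15 and 0.19 on the 3 arrays, and that of Slc29a4 was 0.01 on GFI-Ptch replicate 2. Htr2c, the serotonin 2C receptor, was 6.96, 7.13 and 8.01 on the 3 arrays and 6.24 on NG-Smo replicate 1, above the 5.85 to 6.12 of the 14 others. Ecrg4, a secreted peptide precursor, was 8.10, 7.92 and 8.93 on the 3 arrays and 7.34 on NG-Smo replicate 1, against 6.99 to 7.29. Among junction proteins and keratins 3 of 9 met it, namely Cldn1, Krt8 and Krt18, the last with an excess of 0.09 on GFI-Ptch replicate 2. Of the transcription factors only Gmnc, a regulator of multiciliated cells, met it among the 7 measured. Its levels on the 3 arrays, 6.40, 6.63 and 7.34, lay within the 5.94 to 7.57 of the 14 others.

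**Figure D3:**
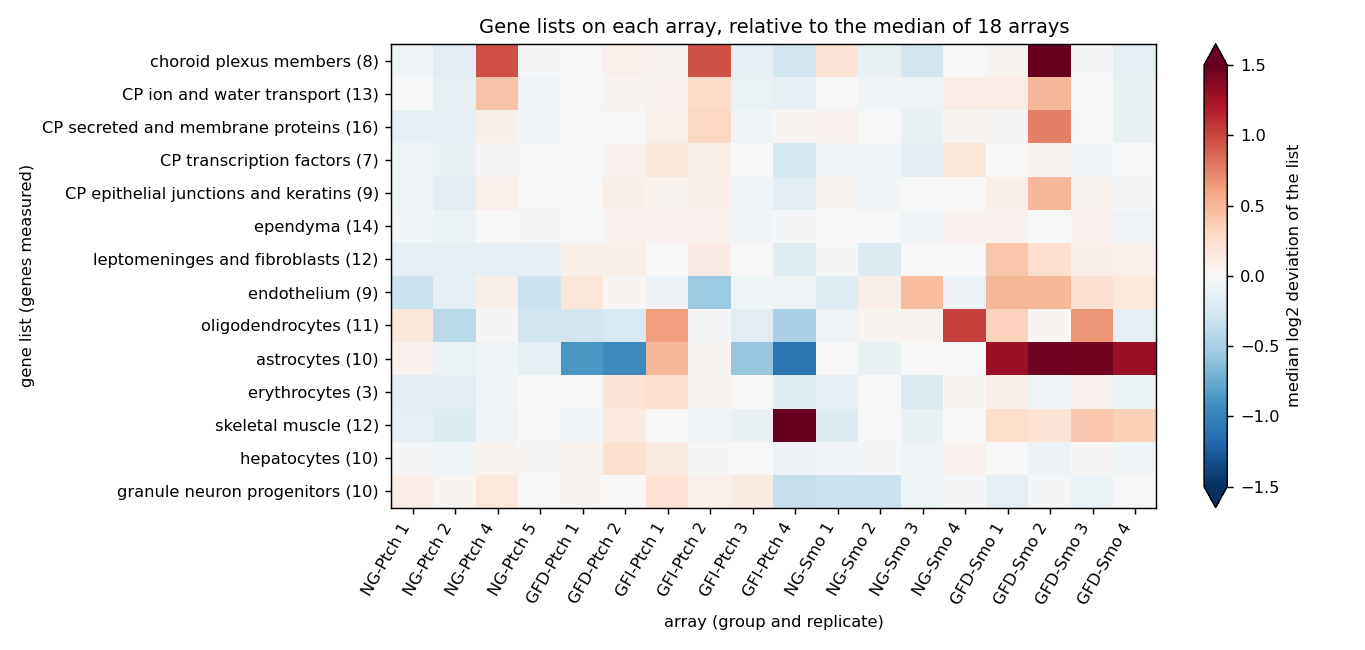
Median over the genes of each list (rows, with the number measured) of the log2 level minus that gene's median over 18 arrays, for each array (columns). Red is above and blue below. CP stands for choroid plexus. The members and the transport list are reddest on NG-Ptch replicate 4, GFI-Ptch replicate 2 and GFD-Smo replicate 2, the secreted list is reddest on GFD-Smo replicate 2, the astrocyte list on all 4 GFD-Smo arrays, and the muscle list on GFI-Ptch replicate 4.

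Markers of neighbouring tissues were read on the same arrays. The mean level of the 8 members was 8.89 to 9.42 on the 3 arrays and 6.89 to 7.61 on the 14 others. The mean of 14 ependymal genes, which mark the ciliated lining of the ventricles, was 6.67 to 6.73 against 6.56 to 6.75. Of these genes 3 (Dnah6, Dnah11 and Dynlrb2), or 21.4%, were highest of their group on all of the 3 arrays, beside 1.83% of all genes. Dnah6 and Dnah11 were so on all 4 arrays high in Ttr, beside 0.381% of all genes. Dynlrb2, at 5.81, 5.79 and 5.80 on the 3 arrays, lay below the lower quartiles of the arrays, and Dnah6, at 6.28, 6.30 and 6.45, near them. The excess of Dnah11 was 0.08, 0.21 and 0.07. Foxj1, the ependymal regulator of motile cilia, was 6.96, 7.13 and 6.99 on the 3 arrays against 6.71 to 7.20. It also stands in the choroid plexus list of transcription factors. The leptomeningeal and fibroblast list lay at 8.26 to 8.61 against 8.13 to 8.81, the endothelial list at 7.65 to 8.72 against 7.88 to 8.77, and the oligodendrocyte list at 7.88 to 8.0 against 7.26 to 9.11. None of these 3 lists had a gene that was highest of its group on all of the 3 arrays (of 12, 9 and 11 measured), and neither had the astrocyte (10), erythrocyte (3), muscle (12) and granule neuron progenitor (10) lists. The liver also makes Ttr. A hepatocyte list, added after the values were seen, lay at 6.35 to 6.48 on the 3 arrays and 6.32 to 6.64 on the 14 others. In it 1 of 10 genes (Ambp), or 10%, was highest of its group on each of the 3. Ambp was 5.99, 6.06 and 5.99 there, below the lower quartiles of the arrays.

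Outside the members, the genes whose pattern was most like the mean of the members over the 18 arrays were Kcnj13 (Pearson r = 0.97), Car12 (0.94), Htr2c (0.94), Abca4 (0.93), Ecrg4 (0.93), Cfap206 (0.90), Tmem72 (0.88) and Calml4 (0.85). These r values rest on the 4 arrays high in Ttr. Over the 14 others they were 0.62, 0.42, 0.15, 0.35, 0.24, 0.05, 0.32 and 0.29 in the same order, and Cfap206 lay between 5.73 and 6.19 on all arrays, below their lower quartiles.

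The comparisons between groups asked whether any member differed with the subtype or the driver of the tumours. Each was tested with limma on all 18 arrays and all 19938 genes, with the Benjamini-Hochberg adjustment and a threshold of 0.05, and 1 member, Clic6, passed it. Each group of 4 held 1 array high in Ttr, and GFD-Ptch held none, which moves the means of the members that followed Ttr. Ttr averaged 8.03 ± 2.74 (SD, n = 4) in NG-Ptch, 6.75 ± 0.04 (n = 2) in GFD-Ptch, 8.0 ± 3.02 (n = 4) in GFI-Ptch, 7.62 ± 2.36 (n = 4) in NG-Smo and 8.06 ± 3.10 (n = 4) in GFD-Smo. Every pair of these means differed by less than the SD of the groups of 4.

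Within Ptch tumours, 0 of 8 members passed limma's adjusted test between GFD and NG, where 0.01% of all genes did, and 0 of 8 had an unadjusted p under 0.05, as 3375 of all genes had. The count of all genes called here was unstable: it was 2 in this fit and 565 with array weights. With 1 array dropped it reached 144 (GFI-Ptch replicate 4), 69 (NG-Smo replicate 4) and 55 (GFD-Ptch replicate 1). The change of Ttr was -1.28 (SE 2.15, adjusted p = 0.771) and its 95% interval ran from -5.85 to 3.30, so a large difference in either direction lies within it. It rests on 1 array: leaving out NG-Ptch replicate 4, the one high in Ttr, puts the change at 0.09. Otx2 lay at 9.90 and 10.22 in GFD-Ptch and at 10.54 to 11.04 in NG-Ptch, a change of -0.76 (SE 0.68, adjusted p = 0.557). The lack of overlap is a description only, since the share of all genes without overlap was not counted and GFD-Ptch had 2 arrays. The direction of Otx2 turned when the gender label entered the model, to 0.22 (adjusted p = 0.904), and both GFD-Ptch tumours were labelled M. The changes of Sostdc1, Kl, Folr1, Slc4a5 and Clic6 were -0.49, -0.31, -0.17, -0.09 and -0.16, and that of Aqp1 was 0.19. The members' median change was -0.24, beside 0.04 over all genes.

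Between GFI and NG in Ptch tumours limma again called 0 of 8 members, beside 0% of all genes, and 0 members and 1701 genes had an unadjusted p under 0.05. Ttr differed by -0.03 (SE 1.76), a value set by 1 high array on each side: dropping NG-Ptch replicate 4 makes it 1.34, dropping GFI-Ptch replicate 2 makes it -1.53, and array weights give 2.36. None of these passed. Otx2 differed by -0.84 (SE 0.56, adjusted p = 0.72), with levels of 9.97 ± 1.70 (SD, n = 4) in GFI-Ptch against 10.82 ± 0.25 (n = 4) in NG-Ptch. The GFI-Ptch mean was pulled down by replicate 3 at 7.65, with replicates 1, 2 and 4 at 11.52, 10.92 and 9.80. The other 6 members changed by between -0.22 (Sostdc1) and 0.12 (Aqp1). Between GFI and GFD the count was 0 of 8 beside 0.00502% of all genes, with 0 members and 1952 genes at an unadjusted p under 0.05. The changes there ran from -0.08 (Otx2) to 0.27 (Sostdc1) for 7 members, and Ttr had 1.25 (SE 2.15, adjusted p = 0.849), which is -0.26 when the high array GFI-Ptch replicate 2 is left out. The medians over the members were -0.04 and 0.17, against 0.02 and -0.02 over all genes.

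Clic6 was higher in GFD-Smo than in NG-Smo tumours. Its level was 9.05, 9.76, 9.18 and 9.40 on GFD-Smo replicates 1 to 4, and 7.13, 8.0, 7.09 and 7.90 on NG-Smo replicates 1 to 4. Every GFD-Smo array was above every NG-Smo array, and the NG-Smo levels fell into a lower and an upper pair. The change was 1.82 (SE 0.31, 95% interval 1.15 to 2.49, adjusted p = 0.00262 by limma), and 1 of 8 members was called where 5.31% of all genes were. The high Clic6 did not go with Ttr in these tumours: 3 of the 4 GFD-Smo arrays had Ttr at 6.48 to 6.56. Without the 4 arrays high in Ttr, a setting added after the values were seen, the change was 1.55 (adjusted p = 0.0065).

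**Figure D4:**
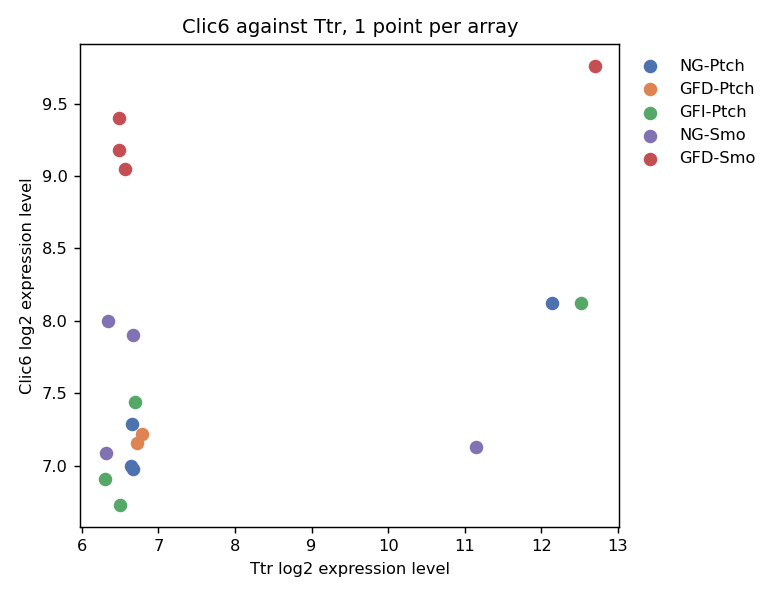
Log2 level of Clic6 (vertical axis) against that of Ttr (horizontal axis), with 1 point for each of the 18 arrays, coloured by group. The 4 GFD-Smo points lie above 9 in Clic6 at both low and high Ttr, and the points of NG-Ptch and GFI-Ptch with Ttr above 12 are both at 8.12.

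Other members in the same Smo comparison changed by 0.22 (Otx2) to 0.47 (Sostdc1), all above 0, as 46.1% of all genes were, and none past the threshold. Their median with Clic6 was 0.43 beside -0.01 over all genes. Without the 4 arrays high in Ttr, the changes of these other members were 0.01 (Folr1 and Otx2) to 0.15 (Kl). The excess on GFD-Smo replicate 2 was larger than that on NG-Smo replicate 1 for every member, and the 1 array in each group enters these means. Of the further choroid plexus genes 1 of 45 passed, Tjp1, a scaffold protein of tight junctions, with a change of 0.31 (adjusted p = 0.0179). Other cell types differed between these groups too. Of the 10 astrocyte genes 6 were called higher in GFD-Smo, among them Gja1 (2.32), Gjb6 (2.08), Aqp4 (1.89) and Aldh1l1 (1.52), and the mean level of the list was 10.99 to 11.10 in GFD-Smo against 9.53 to 9.91 in NG-Smo. Leptomeningeal genes were called higher for 4 of 12, with Slc13a3 at 1.21, Col1a2 at 0.57, Col1a1 at 0.46 and Col3a1 at 0.38. The part of these cells in the Clic6 difference was not tested.

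Clic6 was also higher in GFD-Smo than in GFD-Ptch tumours, where its levels were 7.16 and 7.22 on replicates 1 and 2. The arrays did not overlap, and the change was 2.16 (SE 0.39, 95% interval 1.34 to 2.98, adjusted p = 0.00172 by limma). This was 1 of 8 members, beside 15.6% of all genes, and the comparison shares the GFD-Smo arrays with the one above. That share is of 3110 genes called, which became 6809 with median centring and 1714 or 997 when the first or the second GFD-Ptch array was dropped, and Clic6 was called in each. The other 7 changed by 0.01 (Aqp1) to 1.30 (Ttr, SE 2.15), the Ttr change being -0.24 when the high array GFD-Smo replicate 2 is left out, and the members' median was 0.46 beside -0.06 over all genes. Of the further choroid plexus genes 5 were called higher, namely Cldn1 (2.17, adjusted p = 0.0155), Igfbp2 (1.65, adjusted p = 0.00155), Slc31a1 (0.58), Cab39l (0.49) and Tjp1 (0.43), and Slc29a4 was called lower (-0.60). Igfbp2 binds insulin-like growth factors and Slc31a1 imports copper. Of the astrocyte genes 9 of 10 were called higher, with a median change of 2.32 and a mean list level of 8.72 to 8.83 in GFD-Ptch, and their part in the Clic6 change was not tested.

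Between NG-Smo and NG-Ptch tumours limma called 0 of 8 members, beside 1.04% of all genes, with 0 members and 2116 genes at an unadjusted p under 0.05. Clic6 changed by 0.19 (SE 0.31, 95% interval -0.48 to 0.85) and Ttr by -0.41 (SE 1.76), or 0.96 without NG-Ptch replicate 4. The members' median was -0.26 beside 0.01 over all genes.

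**Figure D5:**
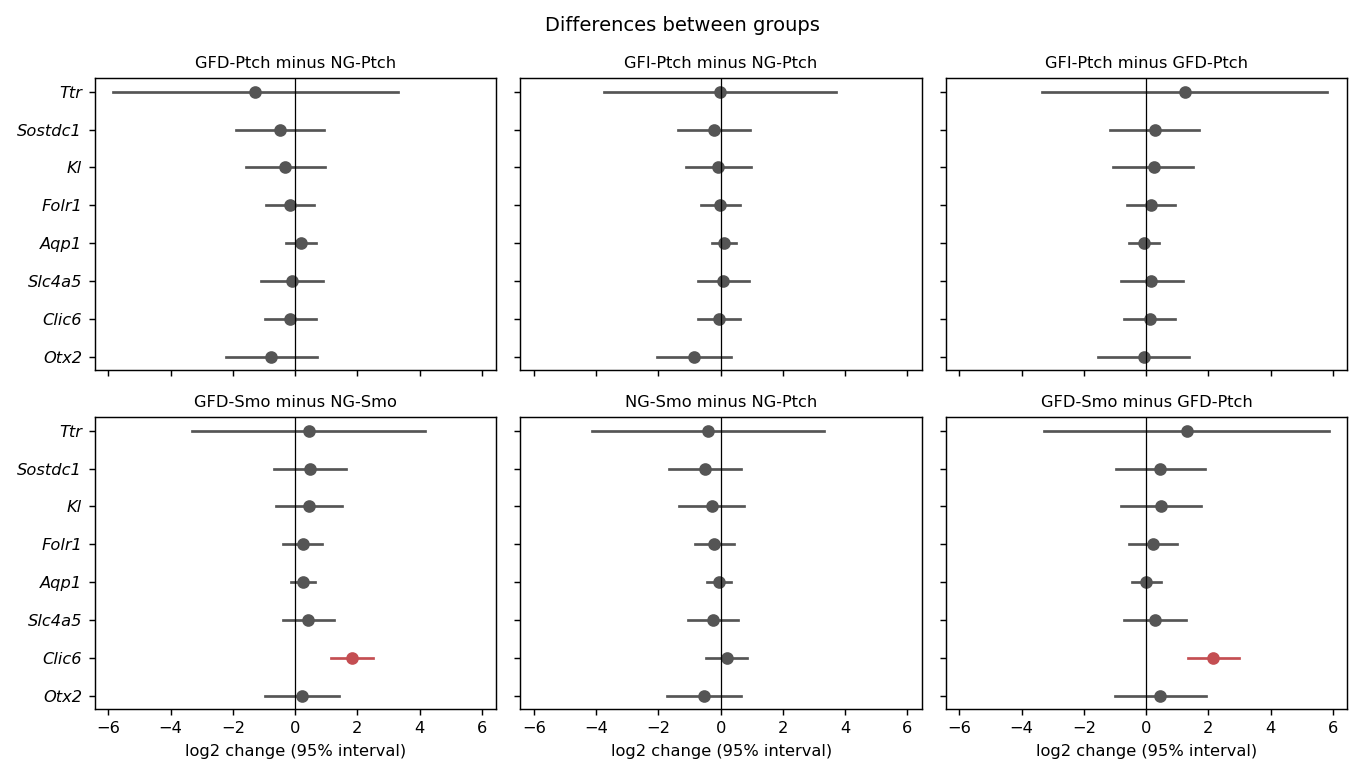
Log2 change of each member (points) with its 95% interval (lines) in 6 comparisons between groups, from the limma fit of 18 arrays. Red marks an adjusted p under 0.05, which Clic6 reached in GFD-Smo minus NG-Smo and in GFD-Smo minus GFD-Ptch. The interval of Ttr spans more than 7 log2 units in every panel.

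The difference between GFD and NG was itself compared between Smo and Ptch tumours. For Clic6 it was 1.82 in Smo and -0.16 in Ptch tumours, and the difference of these changes was 1.97 (SE 0.50, 95% interval 0.91 to 3.03, adjusted p = 0.0397 by limma), 1 of 8 members beside 3.81% of all genes. That call was near the threshold. It was lost with the gender label in the model (1.45, adjusted p = 0.188), without the 4 arrays high in Ttr (1.44, adjusted p = 0.0705) and without any 1 of 12 of the 18 arrays, where the adjusted p was 0.0501 to 0.148 and the difference itself stayed at 1.72 to 2.10. Those 12 were all 4 NG-Ptch, both GFD-Ptch and all 4 GFD-Smo arrays and NG-Smo replicates 1 and 3. No other member passed, with changes of 0.06 (Aqp1) to 1.71 (Ttr, SE 2.78). Leaving out the high array GFD-Smo replicate 2 or NG-Ptch replicate 4 puts the Ttr value at 0.16 or 0.34. Among the further choroid plexus genes 1 of 45 was called, Stra6, a retinol transporter of the cell membrane, with a difference of -1.92 (adjusted p = 0.0466). Of the astrocyte genes 8 of 10 were called with a larger difference in Smo tumours, among them Aldoc (4.39) and Aqp4 (3.72), and their part in the Clic6 value was not tested.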

How the data were processed

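The series table held, for 35556 probe sets and 18 arrays, values that the authors deposited on the log2 scale, as their range of 4.22 to 14.32 shows. Per the submitters' processing notes the tool was Partek 6.6. Background correction, normalization and summary of probes are not given in the sources used here, and a normalization that equalizes arrays would narrow differences between them. Of the probe sets, 21789 had 1 gene symbol in the probe table, 1621 several and 12146 were not in it. A gene with more than 1 probe set (999 genes) was represented by its brightest on average, which left 19938 genes, with no filter and no change of values.

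All 18 arrays entered 1 fit in limma 3.58.1 (R 4.3.3) of 5 group means, with 13 residual degrees of freedom and 2.45 prior ones, two-sided moderated tests and Benjamini-Hochberg adjustment over all genes. The fit was tested on simulated data. Plots used Python 3.11.15 and matplotlib 3.10.9. The number of arrays limits the precision.

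Excess on an array is its log2 level minus the median of the other arrays of its group. Named were all members, all called genes of the further choroid plexus lists, and the 8 genes most like the members' mean. Of the other lists, at most 4 called genes per list and comparison were named, only from the astrocyte and leptomeningeal lists. Called genes of the endothelial, oligodendrocyte, erythrocyte and ependymal lists were not named. Genes named as highest of their group on the 3 arrays, with the example levels given for them and for Atoh1 and Foxj1, were chosen after their values were seen. So were the hepatocyte and granule neuron progenitor lists and the setting without the arrays high in Ttr. Members and lists were chosen with earlier results of these data known. Alternatives were quantile normalization, median centring, a filter on dim genes, array weights, fewer arrays in the fit, the mean of probe sets, the gender label, a replicate block and leaving out each array.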

Additional observations from a re-analysis of the deposited data

Results flagged for a closer look

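Within 32 groups of 4 arrays (8 members in 4 groups), an array lay far from the 3 others of its group in 11 cases, by the gap to its nearest neighbour as a share of the group's range. Chance gives this in about 1 of 20 independent groups, but these groups share the same arrays, and so the count is not read against that rate. All 11 cases were on the 4 arrays high in Ttr, which Ttr itself had picked out. They were Ttr at 12.14 on NG-Ptch replicate 4, 12.52 on GFI-Ptch replicate 2, 11.15 on NG-Smo replicate 1 and 12.70 on GFD-Smo replicate 2. Sostdc1 stood apart at 8.04 on GFI-Ptch replicate 2 and 8.59 on GFD-Smo replicate 2, and Kl at 8.72, 9.18 and 8.90 on NG-Ptch replicate 4, GFI-Ptch replicate 2 and GFD-Smo replicate 2. Folr1 stood apart at 7.75 on GFI-Ptch replicate 2, and Slc4a5 at 8.22 on GFD-Smo replicate 2. For Clic6, the difference between GFD and NG was larger in Smo than in Ptch tumours by 1.97 on the log2 scale (adjusted p = 0.0397 by limma). That call was near the threshold and was lost in several alternatives, among them the gender label in the model (1.45, adjusted p = 0.188). In Smo tumours subtype and Cre driver cannot be told apart.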

How the results depend on the processing

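The number of members past the threshold was the same under every alternative in 6 of the 7 comparisons: 1 (Clic6) in GFD-Smo minus NG-Smo and in GFD-Smo minus GFD-Ptch, and 0 in the other 4. In the difference of GFD minus NG between Smo and Ptch tumours it fell from 1 to 0 with the gender label in the model, with a replicate block (Clic6 1.94, adjusted p = 0.0601) and without the 4 arrays high in Ttr, and ranged from 0 to 1 when each array was left out in turn. The cause was not tested. All genes called there numbered 759, and 188, 417 and 266 under these 3 settings. Over all alternatives the genes called ranged from 0 to 565 in GFD-Ptch minus NG-Ptch, 0 to 180 in GFI-Ptch minus NG-Ptch, 0 to 47 in GFI-Ptch minus GFD-Ptch, 411 to 1740 in GFD-Smo minus NG-Smo, 34 to 419 in NG-Smo minus NG-Ptch, 997 to 6809 in GFD-Smo minus GFD-Ptch and 188 to 1484 in the difference. The shared replicate numbers did not pair the samples: the correlation of deviations was -0.31 to 0.19 over 29 pairs of the same number and -0.38 to 0.30 over 99 pairs of other numbers, and the replicate block changed no other call of a member. The filter on dim genes left 10635 genes and 2 members, Clic6 and Otx2. No called change reversed. Changes that were not called took the other sign in 33 cases under planned settings, 24 without the arrays high in Ttr and 56 when 1 array was left out. With GFD-Ptch at 2 arrays, leaving 1 out assumes that the lone array varies like the other groups. Levels near the lower quartile of the arrays limit what can be read of low members.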
